A study of Mus musculus with 41 samples.

Results

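Fraction E of the Hardy scheme, the immature B cells, was compared with fraction D, the small pre-B cells from which they form. The comparison takes the 5 arrays titled Hardy Fraction E against the 5 titled Hardy Fraction D, which are 10 of the 41 arrays in the series, and every difference is E minus D. The fraction E RNA came from sorted B lineage cells of C57BL/6 mice with wild-type Pax5, and so did the fraction D RNA. The same strain and Pax5 genotype hold for all the other populations, which are the common lymphoid progenitor and fractions A, B, C and F, and the labels list no treatment. The labels give no sort gates, tissue, age or sex and do not say whether the replicates came from separate mice, so every p-value reflects no more than the variation among these arrays, which may be technical. RNA was extracted with Arcturus PicoPure and amplified with the NuGEN Ovation Pico system, and each sample was hybridised to 1 Affymetrix array.

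A small pre-B cell is described as having left the cell cycle after a burst of division driven by the pre-B cell receptor. It recombines its immunoglobulin light chain genes with the Rag1 and Rag2 recombinase. Once a light chain pairs with the mu heavy chain, the cell displays surface IgM and is an immature B cell, which is tested against self antigens before it leaves the bone marrow. Immature cells are also known to begin to express the surface receptors, antigen presentation genes and survival genes of the peripheral B cell.

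Levels are MAS5 signals, which the authors had scaled to the same trimmed mean on every array, and differences are on log2(signal + 32), where 1 unit is 2-fold and where the change of dim genes is understated. A gene was called when its limma adjusted p was under 0.05 over 11947 genes tested, in a fit of all 41 arrays. The array of fraction E replicate 2, called E2 here, stood apart from the other E arrays, so values without E2 are given beside the differences and counts. On E2, 698 genes lay more than 1 log2 unit from the mean of the other 4 E arrays, 572 of them above it, whereas the same count was 297 to 475 for the other E arrays and 248 to 368 for the D arrays. Median signals were 111.2 to 131 on the E arrays and 111.7 to 127.5 on the D arrays, and the ratio of the 3′ to the 5′ Gapdh probe set, a sign of RNA length, was 5.04 to 7.24 in E and 5.11 to 6.04 in D. Xist was high, and the Y-linked Eif2s3y and Kdm5d low, on replicates 2 and 3 of E and likewise of D, with the reverse on replicates 1, 4 and 5 of both. Fraction F had the same pattern by number, whereas in fraction C only replicate 2 had low Xist and high Y-linked genes. The arrays of E thus did not all come from 1 mouse, nor did those of D. Whether each array had its own mouse is not known.

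The genes that set E2 apart included pre-B genes as well as neutrophil and erythroid genes. Dntt, the terminal transferase, had signals of 202, 3644, 73, 242 and 83.6 on E1 to E5, against 3566, 3509.6, 2106, 1898 and 2419 on D1 to D5, so that E2 lay above the highest D array while the other E arrays lay far below the lowest. Vpreb1 had 1439, 9195, 1222, 499 and 897 on the E arrays and 14348, 11347, 12209, 9968 and 12627 on the D arrays, and here too E2 was much nearer to D than to the rest of E. Among neutrophil granule genes, the lactoferrin gene Ltf read 5642 on E2, against 288 to 669 on the other E arrays and 275 to 600.3 on the D arrays. Lyz2, the myeloid lysozyme gene, read 10259 on E2, against 886 to 1654 on the other E arrays and 1022 to 1431 on the D arrays. Slc4a1, the red cell anion exchanger, read 8842 on E2, against 948 to 1950 on the other E arrays and 718 to 1113 on the D arrays. All 3 were high on E2 alone. The part of these cells or RNAs in the results was not tested, and the values without E2 stand beside each of them.

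**Figure D1:**
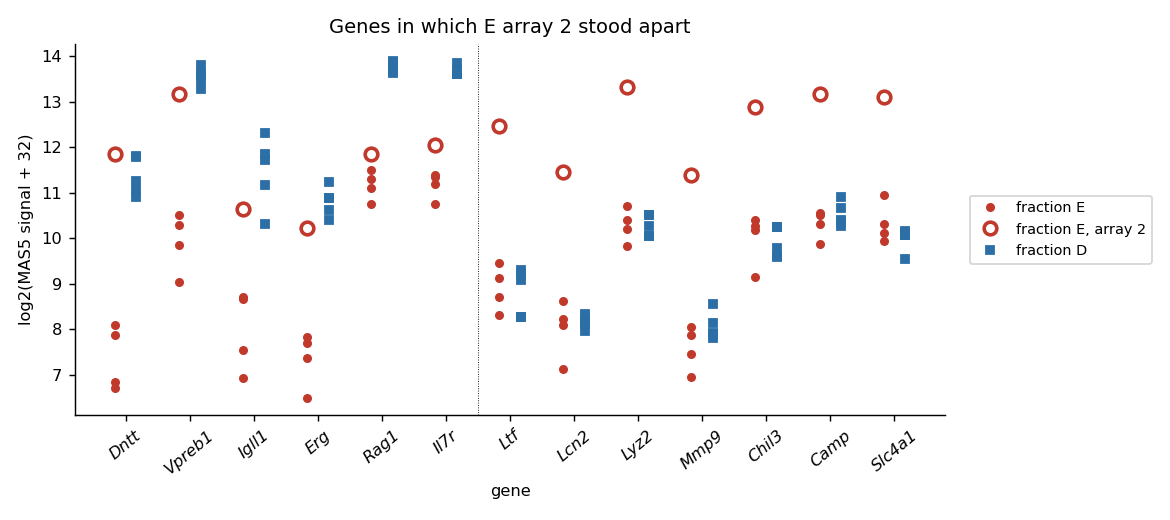
Signals on the log2(signal + 32) scale of 6 genes high in pre-B cells (left of the dotted line) and of 7 neutrophil or erythroid genes (right) on the 5 E arrays (circles, E2 open) and the 5 D arrays (squares). E2 lies toward D in the first set and above every other E and D array in the second, as for Ltf with 5642 against at most 669.

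Of 11947 genes, 465 were higher in E (3.89%) and 503 were lower (4.21%), with a median difference over all genes of 0.01 (-0.0017 without E2). Without E2 the counts were 410 higher (3.43%) and 492 lower (4.12%), with 869 genes called the same way in both. With all arrays, changes of at least 2-fold made up 339 of the rises and 373 of the falls, and in 920 of the 968 called genes no E array overlapped any D array. Such separation was more common than a call: all E arrays lay above all D arrays in 9.35% of genes (1117) and below them in 9.15% (1093). Without E2, where fewer arrays have to separate, the counts were 1298 and 1339. The 7 populations share 1 estimate of spread in this fit, and its median standard error was 0.33, against 0.18 when only the 10 arrays of D and E were fitted. In that smaller fit 1529 genes were higher (12.8%) and 1466 lower (12.3%), and 966 of the 968 calls recurred in the same direction. These shares over all genes are the background for the counts of list members below.

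The gene with the largest rise was Cd83, which encodes a surface protein of activated B cells and dendritic cells. Its signals were 2698, 2475, 2361, 2782 and 3865 on the E arrays, against 50.7, 98.4, 80.9, 90.4 and 65.3 on the D arrays. The groups were far apart, with a difference of 4.71 ± 0.34 (SE, adjusted p = 3.29e-13) and 4.76 without E2 (adjusted p = 2.07e-12). Bhlhe40, a basic helix-loop-helix repressor, had 1514, 1237, 783, 1741 and 1094 in E and 10.9, 23.9, 50.4, 9.4 and 10.2 in D, a difference of 4.63 ± 0.48 (4.63 without E2, adjusted p = 1.99e-09 and 1.37e-08). Egr3, a zinc finger factor induced by antigen receptor signals, had 2417, 1913, 3253, 2864 and 2823 in E and 112, 57.8, 82.9, 79.4 and 103 in D. It differed by 4.50 ± 0.41 (4.61 without E2, adjusted p = 9.41e-11 and 2.86e-10), and its second probe set was not called. Cxcr5, the chemokine receptor that brings B cells into follicles, gave 630, 487, 575, 532 and 531 in E, while on the D arrays it gave 4.7, 5.7, 3.3, 18.1 and 3.5, among the dimmest probe sets. The difference was 3.91 ± 0.39 (3.95 without E2, adjusted p = 9.46e-10 and 4.8e-09).

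The 15 largest rises and the 15 largest falls were taken among called genes whose arrays did not overlap. The other rises were Hivep3, Nxpe4, Cd200, Pkib, Pxdc1, Rab30, Tlr1, Cd74, Ms4a1, Icosl and H2-DMb2. Ms4a1, which encodes CD20, reached 20649, 17501, 21233, 22142 and 22342 in E, against 1422, 1927, 3017, 2865 and 3403 in D. Pkib, an inhibitor of protein kinase A, had 3766 to 5806 in E and 289 to 621 in D, a difference of 3.51 ± 0.43 (3.62 without E2). Hivep3, a large zinc finger protein, had 2649 to 4090.1 in E and 94.3 to 379 in D, with a difference of 3.77 ± 0.47 (3.85 without E2). It was not at its peak in mature cells: the authors' signals averaged 1480.4 ± 468 in fraction F and 1782 ± 525 in fraction C (SD, n = 5 each). Cd200 (a ligand of an inhibitory receptor), Icosl (the ligand of the T cell costimulator ICOS) and Rab30 (a small GTPase of the Golgi) differed by 3.74, 3.09 and 3.42 (3.83, 3.18 and 3.46 without E2).

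The largest fall was that of P2rx3, an ATP-gated ion channel gene, with 34.9, 111, 65.8, 24.7 and 43.5 on the E arrays, against 1163, 987, 562, 743 and 767 on the D arrays. The arrays did not overlap, and the difference was -3.36 ± 0.45 (-3.55 without E2, adjusted p = 5.87e-07 and 6.63e-07). Rbm24, which encodes an RNA-binding protein, had 201, 194, 149, 219 and 72.5 in E and 1724, 1830.4, 1764, 2166 and 1511 in D. It differed by -3.26 ± 0.37 (-3.32 without E2, adjusted p = 1.43e-08 and 5.59e-08), and with a mean of 259 ± 79.2 in fraction C and 116 ± 70.3 in fraction F it was high in D alone among fractions C to F. Iftap likewise had its highest level of these 4 fractions in D, with 1065 to 1252 in E, 7085 to 10147 in D, 3562 ± 1757 in C and 1229.8 ± 469 in F, and it differed by -2.82 ± 0.70 (-2.85 without E2). Erg, an ETS family factor of progenitors, had 178, 1172, 133, 57.8 and 198 in E and 2382, 1877, 1324, 1551 and 1874 in D. It differed by -2.88 ± 0.46 with E2 and by -3.46 without it (adjusted p = 1.21e-05 and 5.29e-08). The others of the 15 were Rag2, Vpreb1, Cdc25c, Trim2, Gfra2, Nav2, Sdc1, Zfp354b, Sertad4, Cav2 and Ptgr1, at differences of -3.17 to -2.50 (-3.62 to -2.63 without E2). Dntt and Igll1 overlapped on E2 and so are not among them, at -3.09 and -2.97 (-3.98 and -3.51 without E2).

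**Figure D2:**
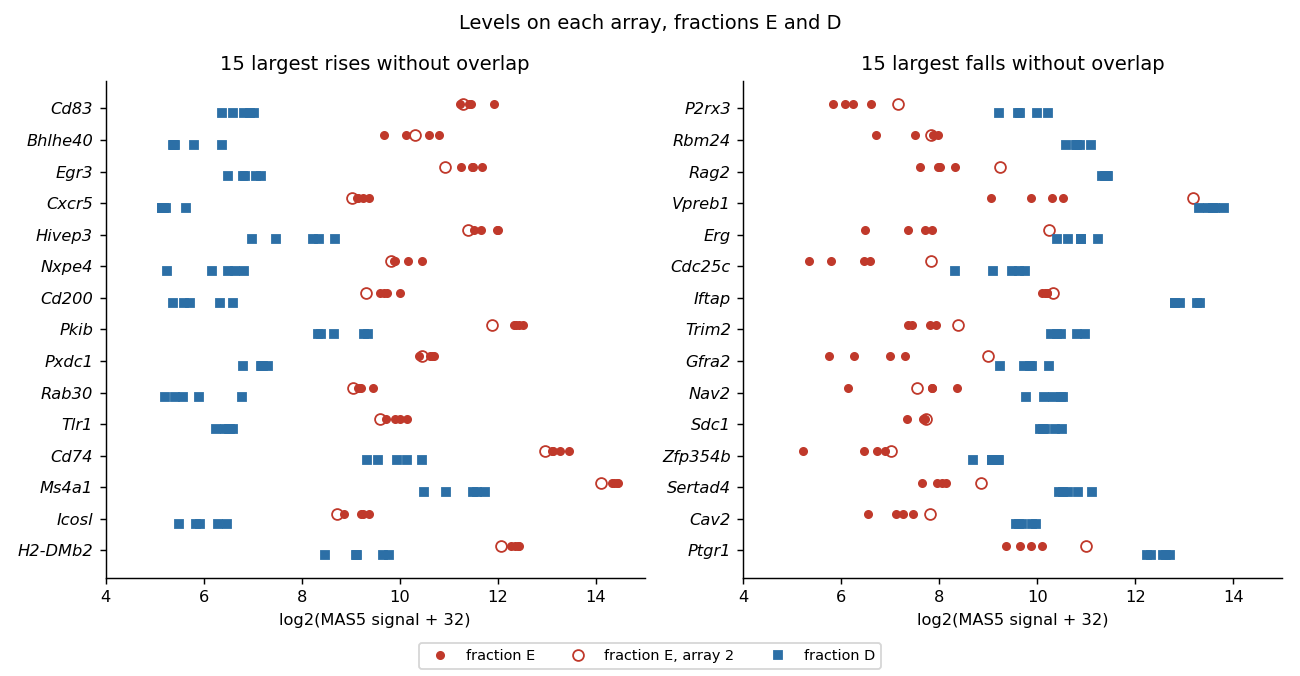
Signals on the log2(signal + 32) scale of the 15 genes with the largest rises (left) and the 15 with the largest falls (right) among called genes chosen for having no overlap, on 5 E arrays (circles, E2 open) and 5 D arrays (squares). Among the E arrays, E2 lies nearest to D in most of the falls, as in Vpreb1 and Erg.

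Of 12 genes used for Hardy sorting, 4 rose and 4 fell, against 3.89% and 4.21% of all genes (4 and 4 without E2). Il2ra, which encodes the CD25 of small pre-B cells, had 459, 672, 387, 606 and 399.9 in E and 1295, 1795, 1756, 2382 and 2108 in D, a difference of -1.83 ± 0.43 (-1.93 without E2). Cd93, the AA4.1 antigen of all immature B lineage cells, was still well above its fraction F level of 1032 ± 332 in E, at 2160.4, 2283, 2337, 1909.8 and 2122, against 4188, 4409, 5209, 5420.3 and 5040.4 in D (difference -1.15 ± 0.21, -1.17 without E2). Enpep, the BP-1 antigen of pre-B cells, fell to 12.9 to 26.9 in E, against 196 to 493 in D (-2.43 ± 0.36, -2.44 without E2). Cr2 and Fcer2a, the CD21 and CD23 genes that mark later B cells, rose by 2.30 and 1.20 (2.32 and 1.18 without E2). The E signal of Fcer2a, 160.2 to 392.4, was still far from the 902 ± 317 of fraction F, and that of Cr2 was 518 to 1099 in E and 2073 ± 208 in F. Ptprc (the B220 and CD45 gene) and Ly6d rose by 0.61 and 1.38 (0.67 and 1.38 without E2). Spn, the CD43 gene, fell by 1.17 (-1.51 without E2), and E2 alone of the E arrays overlapped D, with 1698, 5538, 2047, 1352 and 1660.3 in E and 4277 to 5456 in D. Cd2, Cd24a and Ighm, the mu heavy chain gene, were not called, at -0.08, 0.25 and 0.24 (-0.06, 0.28 and 0.26 without E2). Kit, the stem cell factor receptor of earlier precursors, was not called either and was dim, with 38, 170.3, 47, 40.8 and 43.9 in E and 72.7, 106, 42.1, 47.9 and 41.2 in D. The directions of Il2ra, Cr2 and Fcer2a go with the labels of the fractions.

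Of 17 immunoglobulin locus genes tested, which include heavy chain genes, 2 rose (2 without E2), against 3.89% of all genes. In the fit of D and E alone 14 did, against 12.8%, and the list median was 1.01 (1.02 without E2) beside 0.01 over all genes. The Igk probe set with the highest mean had 24126, 23599, 23581, 25859.9 and 24282 in E and 11173, 10684, 11476, 12855 and 14556 in D. Every E array lay above every D array, by 1.01 ± 0.54 (1.02 without E2), yet the adjusted p was 0.352 (0.428 without E2), and it was 9.48e-09 in the fit of D and E alone. The genes called were the kappa variable genes Igkv6-20, with 195, 273, 267, 516 and 227 in E and 53.6, 16, 127.7, 34.6 and 67.4 in D, and Igkv9-120, with 3820.4, 2623, 3385, 3776 and 3281 and 1048, 787, 931, 927 and 954. They differed by 1.88 ± 0.52 and 1.82 ± 0.57 (1.89 and 1.91 without E2). With all arrays the limma adjusted p was 0.013 for Igkv6-20 and 0.0343 for Igkv9-120. Leaving out D2 or E4 ended the call of Igkv6-20, and leaving out any single array other than E2 ended that of Igkv9-120, at adjusted p up to 0.0769. Probe sets of variable genes can share sequence, so the gene behind such a signal is uncertain.

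The surrogate light chain, which stands in for the light chain in the pre-B cell receptor, fell in both of its genes tested. Of 12 genes in the list of the surrogate light chain and pre-B receptor, which also holds pre-B stage genes, 4 fell (4 without E2, and 8 with 2 higher in the fit of D and E alone), and the 4 were Vpreb1, Igll1, Erg and Il2ra. Vpreb1, given above, differed by -2.98 ± 0.81 with E2 and by -3.62 without it (adjusted p = 0.0134 and 0.00201), and its adjusted p was 0.0591 without E4. Igll1, the lambda5 gene, had 388, 1562, 373, 155 and 90.8 in E and 5074, 3337, 3643, 1237 and 2277 in D on the probe set used, with E2 above D4 and all other E arrays below every D array. It differed by -2.97 ± 0.59 (-3.51 without E2, adjusted p = 0.000398 and 2.68e-05). The other Igll1 probe set was not called, with 1617 to 1968 in E and 1931 to 2197 in D. Vpreb3, which binds newly made chains in the secretory pathway, had 1298 to 1569 in E and 1942 to 3011 in D, with no overlap but no call (-0.76 ± 0.41, -0.81 without E2). Cd79a and Cd79b, the signal chains of both receptors, were not called either, at 0.64 ± 0.48 and 0.51 ± 0.37 (0.65 and 0.52 without E2). Nor were the adaptor Blnk (-0.46, -0.44 without E2) or Lgals1, Lrmp, Nrgn and Slc7a5, which lay between -0.53 and 0.05 (-0.53 and -0.15 without E2).

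Recombination genes fell in 6 of 15 (6 without E2, 7 with 3 higher in the fit of D and E alone), with a median of -0.62 (-0.63 without E2). The recombinase itself fell in both subunits. Rag1 had 1707, 3689, 2865, 2167 and 2496 in E and 13176, 12698, 14047, 15270.4 and 15059 in D, and Rag2 had 161, 572, 228, 218 and 288 in E and 2531, 2713, 2686, 2749 and 2639.9 in D, in each case with the highest E array on E2 and none near D. The differences were -2.47 ± 0.33 and -3.17 ± 0.32 (-2.61 and -3.42 without E2). With all arrays the limma adjusted p was 3.91e-07 for Rag1 and 9.46e-10 for Rag2. That of Rag1 was 4.51e-07 without E2. Rag1 in E was close to its fraction F mean of 2641 ± 415. Dntt, which adds untemplated bases at the joints, differed by -3.09 ± 0.50 with E2 and by -3.98 without it (adjusted p = 2.06e-05 and 9.98e-12). Of the end-joining genes, Xrcc6, the Ku70 gene, had 1748, 2079.5, 1547, 1254 and 1402 in E and 7677, 7893, 7094, 7464 and 8724 in D, and Lig4, the ligase that seals the joints, had 908, 1154, 1523, 773 and 1135 and 3570.2, 3912, 3597, 3784 and 3741. Their differences were -2.27 ± 0.25 and -1.77 ± 0.32 (-2.37 and -1.79 without E2). Hmgb2, a cofactor of Rag cleavage that also tracks division, fell by 0.62 (-0.72 without E2). Xrcc5, the partner of Ku70, moved the other way without a call, at 0.65 ± 0.44 (0.71 without E2), and so did Prkdc, the DNA-dependent kinase, at 0.53 ± 0.36 (0.63). Xrcc4, Nhej1, Poll, Polm, Tdp1, Trp53bp1 and Atm were not called, at -0.70 for Polm to 0.41 for Atm (-0.71 and 0.43 without E2).

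Antigen presentation genes rose together. Of 10 MHC class II genes tested, 7 rose (7 without E2, 9 in the fit of D and E alone), and the list median was 1.45 (1.51 without E2). Promoters of 3 of them are shown because class II genes are known to share upstream elements, among them a reversed CCAAT box called the Y box. The windows run from 250 bases before to 50 bases after the RefSeq start in GRCm38.p6, and capitals mark GATTGG, or CTGATTGG where it is complete, on either strand. H2-Aa lies at chr17:34287774-34288073 on the minus strand, H2-Eb1 at chr17:34305617-34305916 and H2-DMb2 at chr17:34144999-34145298, both on the plus strand.
H2-Aa: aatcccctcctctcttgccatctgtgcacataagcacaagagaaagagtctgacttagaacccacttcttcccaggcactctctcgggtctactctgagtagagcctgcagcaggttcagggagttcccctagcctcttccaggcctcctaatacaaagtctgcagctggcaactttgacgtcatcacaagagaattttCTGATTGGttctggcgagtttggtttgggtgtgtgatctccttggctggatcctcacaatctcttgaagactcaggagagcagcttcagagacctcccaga
H2-Eb1: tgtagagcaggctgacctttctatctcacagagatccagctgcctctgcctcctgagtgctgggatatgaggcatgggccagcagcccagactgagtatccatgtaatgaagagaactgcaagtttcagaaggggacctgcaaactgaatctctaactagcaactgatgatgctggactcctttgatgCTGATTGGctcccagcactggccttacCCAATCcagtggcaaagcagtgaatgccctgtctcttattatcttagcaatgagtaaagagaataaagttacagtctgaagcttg
H2-DMb2: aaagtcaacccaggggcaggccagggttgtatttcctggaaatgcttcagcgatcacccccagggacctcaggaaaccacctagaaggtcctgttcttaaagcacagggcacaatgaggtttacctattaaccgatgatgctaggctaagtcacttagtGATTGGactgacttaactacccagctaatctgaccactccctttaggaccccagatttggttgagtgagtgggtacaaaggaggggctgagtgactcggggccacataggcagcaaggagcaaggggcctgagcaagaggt
The letters GATTGG stood in 7 of the 7 tested class II genes with such a window. They stood in 23.3% of the 9693 tested genes with one, and in 18.2% of all 27025 genes with one. Of the 7 class II genes, 5 rose, while H2-Ob and H2-Eb2 held GATTGG and were not called. No window was available for Cd74, Ciita or H2-Ab1. CTGATTGG, which contains GATTGG, stood in 4 of the 7, in 6.4% of the tested genes and in 4.7% of all genes.

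Cd74, the invariant chain that guides class II molecules, had 8839.7, 7952, 8874, 11148 and 9815 in E and 617, 954, 726, 1095 and 1376 in D. It differed by 3.29 ± 0.43 (3.35 without E2, adjusted p = 3.47e-07 and 1.07e-06). H2-Aa, the alpha chain of I-A, had 6281, 3562, 5568, 5701 and 7853 in E and 1457, 2129, 1199, 2787 and 1630.1 in D, and H2-Eb1, the beta chain of I-E, had 1266, 756, 905, 1061 and 1304 and 38.6, 112, 31, 382 and 274. The D arrays varied widely in H2-Eb1, but the lowest E array still exceeded the highest D array, and the differences were 1.65 ± 0.34 and 2.82 ± 0.44 (1.82 and 2.93 without E2). The peptide exchange factor H2-DM rose in both chains, H2-DMa by 2.79 and H2-DMb2 by 3.08 (3.03 and 3.14 without E2). H2-Ab1 and H2-Oa rose by 1.16 and 1.24 (1.21 and 1.21 without E2). H2-Ob, Ciita, which is the master activator of class II genes, and H2-Eb2 were not called, at 0.60 ± 0.22, 0.98 ± 0.33 and 0.21 ± 0.30 (0.67, 1.01 and 0.18 without E2). H2-Ea, the gene of the other I-E chain, did not pass the signal filter and was not tested. Proteins were not measured. Ciita was dim, at 148 to 221 in E and 50.6 to 131 in D, with no overlap. When limma tested each probe set, another one of Ciita was called higher, by 1.02 (adjusted p = 0.0179, and 1.12 and 0.0151 without E2). It was dim too, with overlap, at 95.5 to 238 in E and 33.4 to 100.9 in D. The remaining Ciita probe set was not called, at 0.56 (0.52 without E2). On every E array Cd74 and H2-Aa were below their means in fraction F, 13676 ± 1156 and 13442 ± 1152.

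Surface genes of mature B cells rose in 16 of 23 tested (16 without E2, 17 in the fit of D and E alone), with a median of 1.29 (1.31 without E2). Cd83, Cd200, Ms4a1, Icosl, Cr2, Fcer2a and Cd40 were among them. Cd40, the receptor for T cell help, had 5515, 4029, 5415, 5486 and 6857 in E and 514, 1096, 1162, 1186 and 963 in D, a difference of 2.47 ± 0.53 (2.58 without E2, adjusted p = 0.000912 and 0.0014). In the list of the TNF receptor family, BAFF and adaptors, 3 of 15 rose and 1 fell (3 and 1 without E2). Over all genes 3.89% rose and 4.21% fell. Tnfrsf13c, the receptor for the survival factor BAFF, was already bright in D, with 21376, 21153, 21538, 22333 and 22415 in E and 10759, 11109, 11516, 11836 and 13384 in D. It rose by 0.89 ± 0.14 (0.90 without E2), and Tnfrsf13b, the TACI gene, by 1.12 ± 0.27 (1.15). Traf6, an adaptor of these receptors and of Toll-like receptors, was the member that fell, by 1.02 (-1.03 without E2).

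Homing receptors moved in both directions. Of 14 genes in the list of chemokine and S1P homing receptors, which also holds the transcription factor Klf2, 6 rose and 1 fell (5 and 1 without E2). Cxcr4, which holds precursors near the Cxcl12-rich stroma of the marrow, was the member that fell, with 7451, 9656, 7945, 8485 and 7742 in E and 14781, 13489.7, 14584, 16088 and 15812 in D, a difference of -0.86 ± 0.24 (-0.92 without E2, adjusted p = 0.0154 and 0.0167). S1pr1, the receptor that draws lymphocytes into blood, had 2483, 1911, 2560.3, 2573 and 2389 in E and 501, 690.1, 715, 1000.1 and 1235 in D, a difference of 1.55 ± 0.38 (1.62 without E2, adjusted p = 0.00486 and 0.00648). Ccr6, the receptor for Ccl20, had 330.2 to 843 in E and 25.1 to 83.6 in D, and Cnr2, the cannabinoid receptor that helps retain immature B cells in marrow sinusoids, had 1131 to 1744 and 211 to 553. These 2 and Ackr3, a scavenger of Cxcl12, rose by 2.74, 2.07 and 2.24 (2.79, 2.15 and 2.41 without E2). Cxcr5, given above, and the dim S1pr3 were the others with all arrays, and S1pr3 was not called without E2 (adjusted p = 0.0444 and 0.0694). The call of S1pr3 was lost with any single array other than D3 left out, at limma adjusted p = 0.054 to 0.123. Of 19 adhesion molecules, 4 rose and 1 fell (4 and 1 without E2), against 3.89% and 4.21% of all genes. The LFA-1 integrin rose in both chains, Itgal by 1.67 and Itgb2 by 0.88, together with its ligand Icam1 by 1.68 (1.65, 0.75 and 1.66 without E2). Itgb2 is also a myeloid gene, and its highest E signal, 2467, was on E2. The P-selectin ligand Selplg fell by 1.02 (-1.13 without E2), and Alcam rose by 1.65 (1.61) with overlap of the arrays.

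Of 14 genes in the Toll-like receptor list, 4 rose (3 without E2, 5 in the fit of D and E alone). They were Tlr1, Cd180, Ly86 and Tlr4. Cd180 and Ly86 encode the 2 parts of the RP105 and MD-1 complex of B cells and had 1927, 1513, 2108, 1884 and 1750.1 and 3093, 2822, 2949.6, 2981 and 3091 in E, against 506, 364, 473, 555 and 542 and 514, 673, 701, 921 and 855 in D. They differed by 1.85 ± 0.29 and 2.01 ± 0.28 (1.92 and 2.03 without E2). Tlr4, the lipopolysaccharide receptor, had 218 to 506 in E and 40.6 to 198 in D without overlap, with adjusted p = 0.0289 with E2 and 0.0617 without it.

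**Figure D3:**
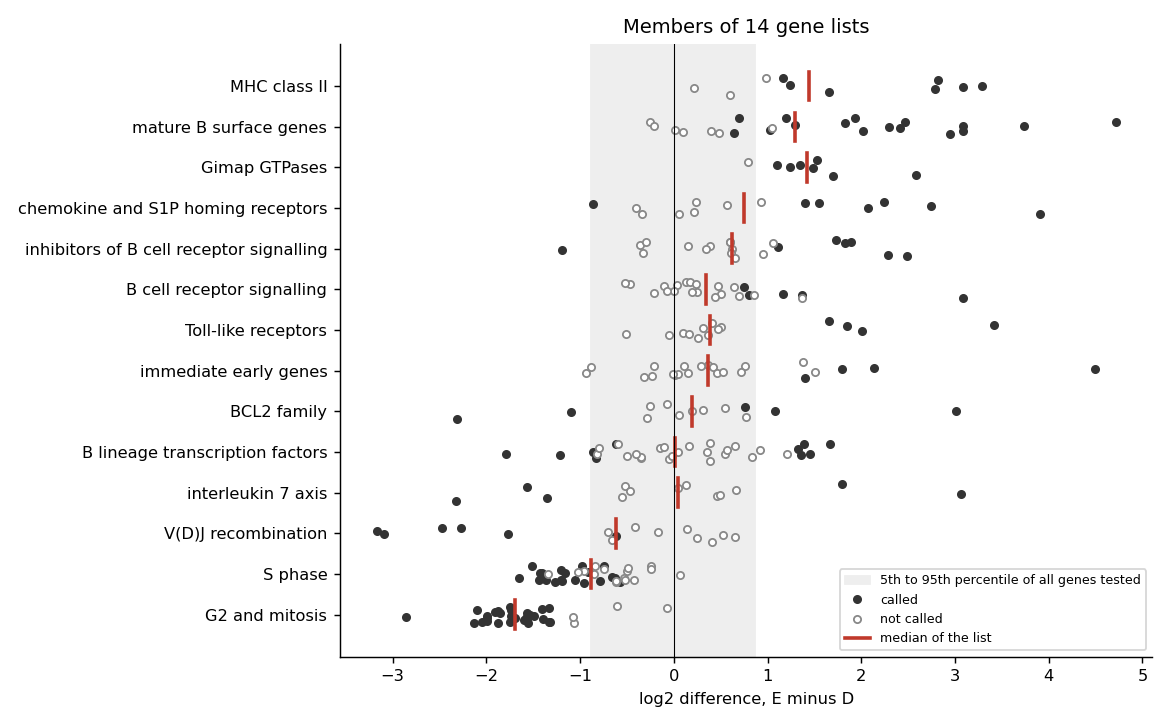
Log2 differences, E minus D, of the tested members of 14 gene lists. Filled points were called, open points were not, the red bar is the list median, and the grey band spans the 5th to 95th percentile of all genes tested. MHC class II and mature B surface genes lie mostly to the right (medians 1.45 and 1.29), and S phase and mitosis genes to the left (medians -0.88 and -1.70).

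Signalling genes of the B cell receptor rose in 5 of 24 (4 without E2), against 3.89% of all genes, and in the fit of D and E alone 11 were higher and 2 lower, against 12.8% and 12.3% of all genes. Bank1, a scaffold of Lyn and phospholipase signalling, rose most, with 4341, 2957, 4097, 3742 and 4744 in E and 374, 384, 607, 352 and 508 in D, by 3.08 ± 0.42 (3.18 without E2, adjusted p = 6.57e-07 and 1.39e-06). Malt1 and Plcg2, which link the receptor to NF-kappaB and calcium, rose by 1.37 and 0.80 (1.42 and 0.84 without E2), and Vav2, an exchange factor for small GTPases, rose by 0.75 (0.83 without E2). Leaving out any single array other than E2 ended the call of Vav2, at adjusted p = 0.0588 to 0.108, and its difference was 0.17 with the probe sets of a gene averaged. Stim1, the calcium store sensor, was called with E2 (1.16 ± 0.36, adjusted p = 0.0359) and not without it (1.13, adjusted p = 0.0719). Leaving out E1, E5, D2, D3, D4 or D5 ended its call too, at limma adjusted p up to 0.121. Over all settings its difference was 0.25 to 1.61. Inhibitors rose beside the activators: 6 of 20 rose and 1 fell (11 and 1 in the fit of D and E alone), and without E2 7 rose and Ubash3a, the faller, was not called. Btla, an inhibitory receptor, had 16270.4, 13584, 15921, 16182 and 16466 in E and 2299.8, 2569, 2736, 2963 and 3338 in D. Ptpn6, the SHP-1 phosphatase, had 5193, 5329, 4697, 5649 and 4321 in E and 623, 1123, 1036, 1098 and 1279.7 in D. Cd22, a sialic acid-binding receptor that recruits SHP-1, had 5860.2, 4511, 6176, 8378 and 6499 in E and 1274, 1659, 1744, 1817 and 1779 in D. All E arrays exceeded all D arrays in each of the 3, by 2.49 ± 0.29, 2.28 ± 0.29 and 1.89 ± 0.42 (2.54, 2.26 and 2.00 without E2). Pirb, another inhibitory receptor, rose by 1.83 (1.72 without E2). Ubash3a was dim, with 7.2 to 19.4 in E and 47.3 to 82.2 in D, and its adjusted p was 0.042 with E2 and 0.0753 without it. Its call was lost with any single E or D array left out, at limma adjusted p = 0.0513 to 0.0928.

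Immediate early genes, which follow receptor signals within minutes, rose in 4 of 23 (4 without E2, 9 with 3 lower in the fit of D and E alone). Over all genes 3.89% rose, and in the fit of D and E alone 12.8% were higher and 12.3% lower. Egr1 had 9699, 8112, 8117, 9741 and 9524 in E and 2809, 2084, 1479, 2695 and 1449.5 in D, a difference of 2.14 ± 0.51 (2.17 without E2, adjusted p = 0.00334 and 0.00626). Egr3, Myc and Ier5 were the others, and Ier5 rose by 1.40 (1.43 without E2). Egr2 and Nr4a1 had no overlap between groups but were not called, at 1.50 ± 0.63 and 1.38 ± 0.56 (adjusted p = 0.165 and 0.143, and 0.205 and 0.266 without E2). In the fit of D and E alone their adjusted p was 1.5e-05 and 0.000851. Among NF-kappaB genes 3 of 14 rose (2 without E2, 8 in the fit of D and E alone), against the same shares of all genes. Bcl3 and the kinase Ikbkb rose by 0.89 and 0.73 (0.95 and 0.77 without E2), and Nfkbid, with 919 to 1282 in E and 198 to 536 in D, was not called without E2 (adjusted p = 0.0292 and 0.0541).

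The largest changes in the BCL2 family ran in opposite directions. Bcl2, the antiapoptotic gene of resting lymphocytes, had 2982, 2796, 3014, 2928 and 3099 in E and 346, 263, 397, 388 and 315 in D, whereas Bcl2l1, which encodes the Bcl-xL that protects small pre-B cells, had 233, 448, 142, 314 and 133 in E and 1057, 1076, 1098, 1553 and 1749 in D. Neither overlapped, and the differences had opposite signs, 3.02 ± 0.28 and -2.32 ± 0.39 (3.04 and -2.53 without E2). With all arrays the limma adjusted p was 9.41e-11 for Bcl2 and 3.37e-05 for Bcl2l1. Of 13 BCL2 family genes, 3 rose and 2 fell (3 and 2 without E2), against 3.89% and 4.21% of all genes. Mcl1, another antiapoptotic gene and already bright in D, rose by 0.76 ± 0.23 (0.78 without E2), and the proapoptotic Bid by 1.08 ± 0.27 (1.06). Bcl2l11, the proapoptotic Bim gene, fell, with 2891, 1833, 2469, 2155 and 2088 in E and 5036, 5286, 5375, 5114 and 3795 in D (-1.10 ± 0.25, -1.03 without E2). Bcl2 averaged 1778 ± 872 in fraction C and 7222 ± 524 in fraction F, so D had the lowest level of fractions C to F.

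The interleukin 7 receptor and its cyclins also changed. Il7r had 2665, 4243, 2576, 2319.6 and 1687 in E and 14744, 12445, 12446, 13353 and 12437 in D, and E2 was the highest E array. The difference was -2.33 ± 0.18 (-2.50 without E2, adjusted p = 1.8e-12 and 1.81e-13). Among 13 genes of the interleukin 7 axis, 2 rose and 3 fell (2 and 3 without E2), against 3.89% and 4.21% of all genes. Ccnd2, the cyclin D2 gene, was a riser, with 6949.6, 5782, 7049, 8741 and 7459.5 in E and 1386, 753, 1719, 556 and 378 in D, and its 6 other probe sets were all called higher. Ccnd3, the cyclin D3 that pre-B cells need to divide, was a faller, with 526, 824, 577, 769.5 and 412 in E and 1196, 2185, 1837, 1642 and 1309 in D, though neither of its 2 other probe sets was called. The differences were 3.06 ± 0.26 and -1.36 ± 0.24 (3.13 and -1.46 without E2). The other riser was Myc, with 1264, 1605, 1215, 1245 and 1430.2 in E and 617, 322, 463, 203 and 334 in D (1.80 ± 0.24, 1.73 without E2), and the other faller was Socs2, an inhibitor of cytokine signals, at -1.56 ± 0.46 (-1.59). None of Socs2's 4 other probe sets was called. Ccnd2 and Myc were lower in D than in the fractions on either side: they averaged 5153 ± 274 and 2737 ± 1006 in C and 6070.1 ± 1269.5 and 1987 ± 355 in F.

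**Figure D4:**
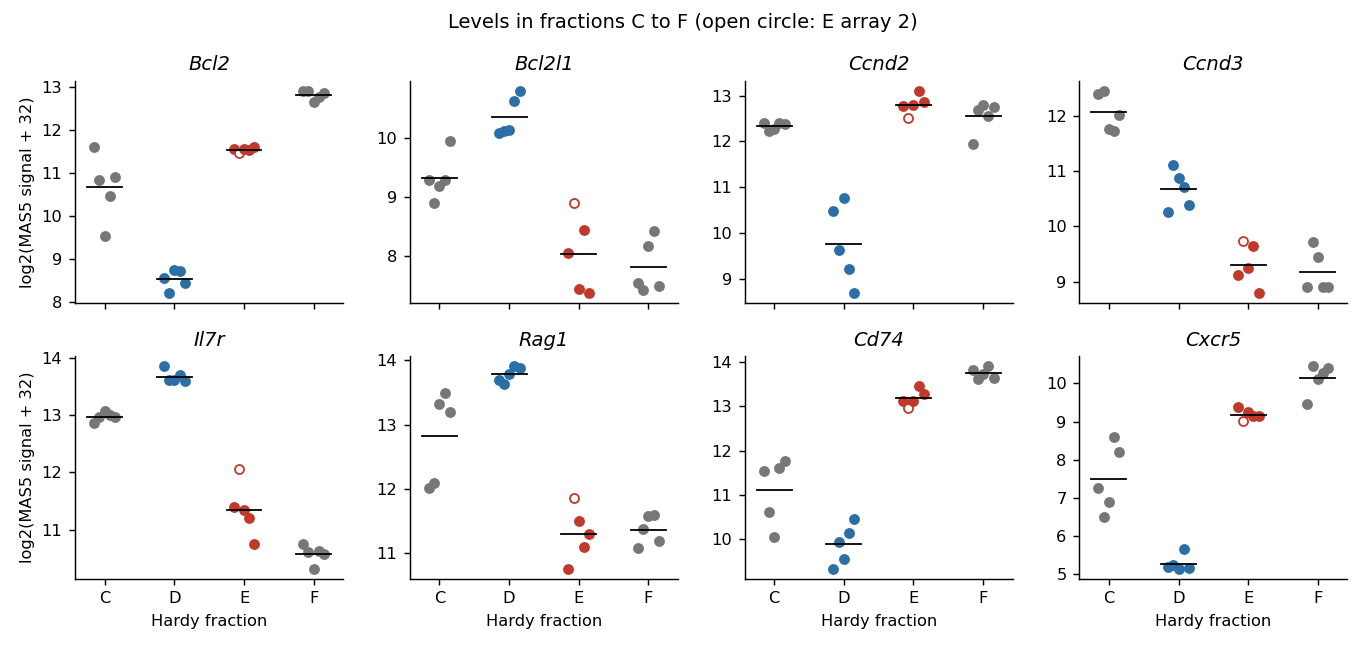
Signals on the log2(signal + 32) scale of 8 genes on the 5 arrays each of fractions C, D, E and F (points, E2 open, bars are means). Bcl2, Ccnd2, Cd74 and Cxcr5 are higher in E than in D, and Bcl2l1, Ccnd3, Il7r and Rag1 are lower, as for Il7r with 1687 to 4243 in E and 12437 to 14744 in D.

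Genes of DNA replication and mitosis fell together. Of 36 S phase genes, 20 fell (20 without E2, 32 in the fit of D and E alone), with a median of -0.88 (-0.995 without E2), and of 33 genes of G2 and mitosis, 29 fell (30 without E2, 32 in the fit of D and E alone), with a median of -1.70 (-1.91 without E2). The summed signal of the mitosis genes was 33110 to 38281 on E1, E3, E4 and E5 and 65936 on E2, against 89680 to 110670 on the D arrays, so E2 lay between the groups. The D arrays held the higher mitosis signal, although small pre-B cells are described as having left the cell cycle. The source of that signal was not tested. In bulk samples fewer dividing cells and less of each RNA per cell cannot be told apart. Promoters of 3 mitosis genes are shown because genes of this class are known to share CCAAT boxes and a cell cycle element with the core TTTGAA near the start. Capitals mark GATTGG or CTGATTGG and TTTGAA on either strand, and the windows are Ccnb2 at chr9:70421505-70421804, Cdk1 at chr10:69352863-69353162 and Cenpf at chr1:189688037-189688336, all on the minus strand of GRCm38.p6.
Ccnb2: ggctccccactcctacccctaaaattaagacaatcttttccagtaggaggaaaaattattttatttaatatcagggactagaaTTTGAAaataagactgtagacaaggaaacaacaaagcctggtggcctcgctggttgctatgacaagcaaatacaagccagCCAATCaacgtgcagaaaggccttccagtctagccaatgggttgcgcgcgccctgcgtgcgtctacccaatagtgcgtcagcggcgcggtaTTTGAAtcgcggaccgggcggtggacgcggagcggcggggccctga
Cdk1: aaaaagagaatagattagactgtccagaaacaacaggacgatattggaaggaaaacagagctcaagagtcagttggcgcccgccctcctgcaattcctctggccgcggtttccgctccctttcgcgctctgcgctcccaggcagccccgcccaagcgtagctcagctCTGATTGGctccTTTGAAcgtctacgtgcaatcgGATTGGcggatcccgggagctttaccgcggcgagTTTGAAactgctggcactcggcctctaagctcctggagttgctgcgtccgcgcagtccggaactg
Cenpf: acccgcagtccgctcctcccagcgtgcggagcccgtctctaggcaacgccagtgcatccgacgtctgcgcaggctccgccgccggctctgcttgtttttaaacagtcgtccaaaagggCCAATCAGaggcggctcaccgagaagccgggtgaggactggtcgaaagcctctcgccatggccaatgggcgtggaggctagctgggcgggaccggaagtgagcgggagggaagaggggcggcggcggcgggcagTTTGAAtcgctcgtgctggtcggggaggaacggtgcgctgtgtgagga
GATTGG reads CCAATC on the other strand. CCAAT followed by another base, which each of these 3 windows also holds, was neither marked nor counted. Of 27 tested mitosis genes with such a window, 19 held TTTGAA, 16 held GATTGG and 13 held both, that is 70.4%, 59.3% and 48.1%. Over the 27025 genes with a window the shares were 20.2%, 18.2% and 2.99%, and over the 9693 tested genes with one they were 14.4%, 23.3% and 2.7%.

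Ccnb2, a cyclin of mitosis, had 853, 1797, 833, 733 and 743 in E and 4208, 3719, 3186, 3392 and 3084 in D. Cdk1, its kinase, had 359, 883, 316, 457 and 344 in E and 1550.3, 2011, 1037, 1093 and 1233 in D. Cenpf, a kinetochore protein, had 678, 1593, 499, 794 and 506 in E and 3021, 3157, 3088, 3052 and 2819.7 in D. In each, E2 was the highest E array, no E array reached D, and the differences were -1.87 ± 0.26, -1.55 ± 0.45 and -1.99 ± 0.36 (-2.10, -1.79 and -2.26 without E2). The call of Cdk1 was lost without E1, E3, E5 or D2, at adjusted p = 0.0511 to 0.0692. Cdc25c, the phosphatase that activates Cdk1, fell most of the list, by 2.85 (-3.21 without E2), and Kif2c, Bub1 and Birc5, which act at the spindle and kinetochore, fell too, at -2.13, -2.10 and -2.05 (-2.34, -2.29 and -2.37 without E2). In the fit of all populations Mki67, the Ki-67 gene, was called without E2 and not with it. It differed by -0.60 ± 0.23 with E2 and by -0.75 without it (limma adjusted p = 0.104 and 0.038). Its E signals were 11975, 19770.4, 10515, 12367 and 12879, with E2 inside the D range of 18399 to 21585. In S phase, Uhrf1, which maintains DNA methylation, had 1644, 2547, 1849, 1928 and 1492 in E and 7037, 6964, 6641, 5187 and 4307 in D, and Pole, Mcm2 and Gins1, parts of the replication machine, fell, at -1.52, -1.44 and -1.42 (-1.57, -1.56 and -1.58 without E2). Of 13 inhibitors and retinoblastoma family genes, 2 fell (2 without E2, 7 with 1 higher in the fit of D and E alone): Cdkn2c, the p18 inhibitor, at -1.52 and Rbl1, the p107 gene, at -1.21 (-1.64 and -1.26 without E2). Over all genes 4.21% fell, and in the fit of D and E alone 12.3% were lower and 12.8% higher.

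Of 32 B lineage transcription factors, 5 rose and 5 fell (5 and 4 without E2, 12 and 11 in the fit of D and E alone), with a median of 0.02 (0.07 without E2). Over all genes 3.89% rose and 4.21% fell, and in the fit of D and E alone 12.8% and 12.3% did. Bcl11a, with 5008, 3961, 6198, 6779.7 and 8232 in E and 1850, 1719, 1673, 1854 and 2060.3 in D, rose by 1.66 ± 0.27 (1.80 without E2), and 5 of its 6 other probe sets were called higher. Mef2c, a factor of B cell receptor responses, rose by 1.45, Irf8 by 1.39 and Pou2f2, the Oct-2 gene, by 1.36 (1.52, 1.46 and 1.39 without E2), and Klf3 rose by 1.33 (1.26 without E2). Sox4, an HMG-box factor of B cell precursors, had 2077, 1836, 1912, 2136 and 1714 in E and 6192, 5799, 6999, 8030.1 and 6943 in D and fell by 1.79 (-1.77 without E2). Lef1, another HMG-box factor, and Bach2, a repressor that opposes plasma cell fate, fell, at -1.21 and -0.83 (-1.33 and -0.81 without E2), and Myb fell by 0.62 (-0.62 without E2). Tcf12, an E protein, fell by 0.86 and was not called without E2 (adjusted p = 0.0393 and 0.0835). Its call was lost with any single E or D array left out, at limma adjusted p = 0.0616 to 0.0835. The factors that commit cells to the B lineage, Pax5 and Ebf1, were not called, at 0.39 ± 0.34 and -0.50 ± 0.30 (0.44 and -0.47 without E2).

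The Gimap genes, GTPases linked to lymphocyte survival, rose in 7 of 8 (6 without E2, 8 in the fit of D and E alone), with a median of 1.42 (1.45 without E2). Gimap8 had 4445, 3019, 4263, 3608 and 5013 in E and 542, 535, 593, 801 and 783 in D, a difference of 2.59 ± 0.37 (2.69 without E2, adjusted p = 1.54e-06 and 2.6e-06), and Gimap5 and Gimap4 rose by 1.69 and 1.53 (1.84 and 1.48 without E2). Gimap7 had 214 to 334 in E and 15.3 to 155 in D without overlap, and it was not called without E2 (adjusted p = 0.0465 and 0.0626). The call of Gimap7 was lost with any single array other than D5 left out, at limma adjusted p = 0.0626 to 0.193.

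Ribosome biogenesis genes rose in 5 of 26 (5 without E2), against 3.89% of all genes, and in 14 of 26 in the fit of D and E alone, against 12.8% of all genes. The list median was 0.45 (0.45 without E2), and the largest rises were those of Polr1a, the catalytic subunit of RNA polymerase I, by 1.37 and Mybbp1a by 1.04 (1.33 and 1.05 without E2). Pes1 and Gnl3, nucleolar factors, rose by 0.86 and 0.86 (0.88 and 0.89 without E2), and the fifth gene was Wdr43, at 0.84 (0.79 without E2). Of 16 glycolysis genes, 3 rose (2 without E2), against 3.89% of all genes. The glucose transporter Slc2a1 and the aldolase Aldoa rose by 1.04 and 0.96 (1.05 and 0.93 without E2), while Slc2a3, another glucose transporter, had its highest E signal on E2 and was not called without it (adjusted p = 0.033 and 0.12). Of 27 oxidative phosphorylation genes, 1 fell, Uqcrh of complex III, by 0.56 (-0.59 without E2), against 4.21% of all genes, and 8 did in the fit of D and E alone, against 12.3%. Of 19 sterol synthesis genes, 1 rose, the lanosterol synthase Lss, by 0.98 (1.00 without E2), against 3.89% of all genes. Of 10 heat shock genes, limma called 0 in the fit of all populations, 2 had an unadjusted p under 0.05 and 3 were higher in the fit of D and E alone. The largest differences were those of the chaperones Hspa5, at 0.53 ± 0.19, and Hspe1, at 0.48 ± 0.19 (0.53 and 0.43 without E2). Of 25 interferon response genes, 2 rose (2 without E2), against 3.89% of all genes. They were Isg20 and Mx1, which rose by 1.79 and 1.58 (1.47 and 1.66 without E2). Isg20 was highest on E2, with 194, 548, 232, 77.1 and 183 in E.

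Markers of cells outside the pathway were checked in the same fit. Of 21 myeloid markers limma called 0 with or without E2, also in the fit of D and E alone, and 0 had an unadjusted p under 0.05. Their median difference was 0.53 with E2 and 0.04 without it, and the summed signal was 135580 on E2, 15428 to 33971 on the other E arrays and 21727 to 29776 on the D arrays. E2 was the highest E array for 21 of 22 such genes on the array, and in the other E arrays 5 of the 22 lay below the array median throughout, against 6 in D. The primary granule genes Ctsg and Elane read 1302 and 450.2 on E2, with 82.2 to 492 and 43.7 to 194 on the other E arrays and 116 to 273 and 10.6 to 105 on the D arrays. Of 20 NK and T cell markers limma called 0 in the same 4 ways and 0 had an unadjusted p under 0.05, with sums of 6019 to 7309 in E and 5878 to 7827 in D. Gzma, a granzyme, was at 7, 301, 54.9, 24.2 and 21 in E and 5.3, 3.7, 94.2, 8.4 and 3 in D, and Eomes, a factor of NK cells, at 5.7 to 107 and 4.7 to 14.7.

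Of 12 erythroid markers 1 fell, against 4.21% of all genes. It was the transferrin receptor gene Tfrc, which dividing cells of many types express, and it fell by 0.55 (-0.65 without E2). With all arrays 11 of the 12 differences were positive, and the list median was 0.62 (0.30 without E2). In the fit of D and E alone 1 was higher and 1 lower, against 12.8% and 12.3% of all genes. The erythroid sum was 54724 on E2, 24004 to 29588 on the other E arrays and 25523 to 30304 on the D arrays. Of 6 megakaryocyte markers 1 fell, Selp, with 2.9 to 79.5 in E and 124 to 189 in D (-1.71, -1.65 without E2), and the sums were 1964 to 3941 in E and 1497 to 2875 in D. Of 12 plasma cell markers 1 rose and 3 fell (1 and 3 without E2): Edem1, a factor of protein quality control in the endoplasmic reticulum, rose by 1.11, and Sdc1, Slamf7 and Mzb1 fell, at -2.61, -1.61 and -0.81 (1.14, -2.63, -1.63 and -0.82 without E2). Over all genes 3.89% rose and 4.21% fell. Sdc1 encodes CD138 and is also expressed by pre-B cells. Plasmacytoid dendritic cell markers rose in 3 of 15 (3 without E2), against 3.89% of all genes. In the fit of D and E alone 6 rose, against 12.8%. The list median was 0.25 (0.35 without E2), and 5 of the 15 differences were negative. Sums over the whole list, with the 3 that rose, did not overlap, with 16247 to 19866 in E and 9763 to 12596 in D. The 3 were Pld4, an endolysosomal exonuclease that B cells also express, with 3787, 3224, 3022, 3412 and 3232 in E and 750.4, 824, 665, 716 and 755 in D, the cytokine receptor gene Lifr, with 424 to 629 and 32.5 to 131, and the factor Irf8 given above. Pld4 and Lifr differed by 2.12 ± 0.25 and 2.51 ± 0.50 (2.13 and 2.57 without E2), and the part of such cells was not tested.

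Leaving out E2 cost 99 calls, 63 of them rises and 36 falls, and added 33. The largest changes lost were those of Kctd14, Slc2a3, Rgs16, Tlr4, Gimap7, Pvt1, Nfkbid, Ccdc180, Grtp1 and D13Ertd608e, of which Rgs16, a brake on G protein signals, was the fall. Rgs16 had 289, 165, 165, 168 and 218 in E and 756, 576, 524, 691 and 960.2 in D, with no overlap, and its adjusted p was 0.0249 with E2 and 0.0546 without it. Kctd14 had 288 to 794 in E and 85.6 to 158 in D, with adjusted p = 0.0295 and 0.0657. For the 10 genes the differences were 1.43 to 1.98 among the rises (1.26 to 1.90 without E2), and the adjusted p without E2 was 0.0541 to 0.12. In the fit of D and E alone all 10 were called. Loss of calls was not peculiar to E2: with any single D or E array left out there were 386 to 418 rises and 423 to 492 falls. Over these 10 fits the calls of Mcl1, Lss and Uqcrh were lost in 6 each, that of Mzb1 in 5, that of Gnl3 in 4 and that of Socs2 in 3, at adjusted p up to 0.117. Genes lost without E2 were lost in other fits too. Gimap7 was lost in 9 of the 10, Pvt1 and Ccdc180 in 8, and Slc2a3 and Grtp1 in 7. Kctd14, Tlr4 and Nfkbid were lost in 6, Rgs16 in 5 and D13Ertd608e in 3. E2 itself lay more than 1 log2 unit above the other E arrays in 69 genes that fell in E and in 7 that rose.

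**Figure D5:**
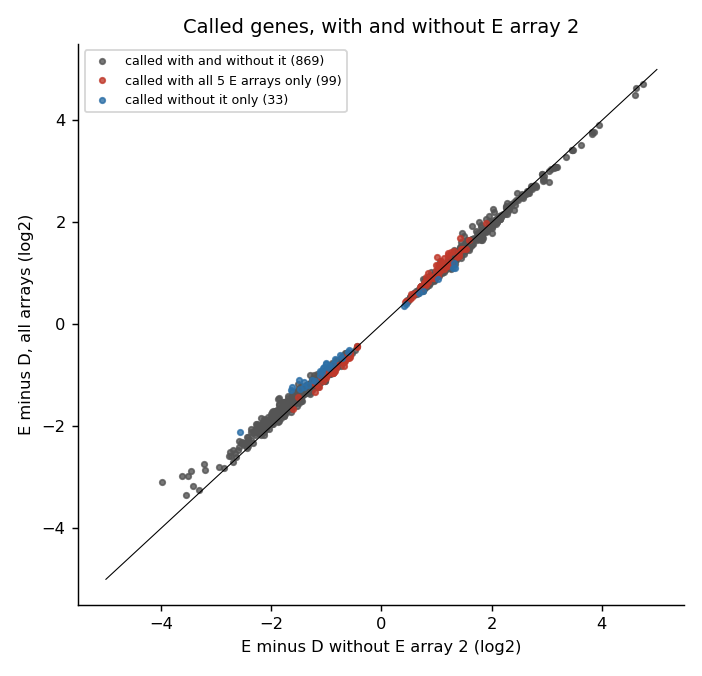
Log2 difference, E minus D, with all arrays (vertical) against the difference without E2 (horizontal), for genes called with or without E2. The line marks equal values. Of the genes drawn, 869 were called in both, 99 only with E2 and 33 only without it, and the strongest falls lie above the line because they are larger without E2.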

How the data were processed

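RNA of 7 sorted populations was measured on 41 Affymetrix arrays, and the 5 E and 5 D arrays were grouped by their titles. The authors deposited linear intensity values, which the submitters' processing notes trace to MAS5 with no version. Each array's mean, once 2% of probe sets had been trimmed at either end, equalled 500, a scaling made by the authors. For a build, none is named in the labels or notes. Detection calls were not used, and precision is limited by the number of arrays. Among 45101 probe sets, 34958 listed with 1 gene were kept, 932 with several genes and 9211 not listed were left out, and each of 18193 genes was represented by its probe set with the highest mean. Genes at or above the array median on at least 5 of the 41 arrays, 11947 in all, were tested on log2(signal + 32) with limma 3.58.1 in R 4.3.3 (linear model and contrasts, then eBayes with a trend and robust variances, statmod 1.5.0), with 7 population means and Benjamini-Hochberg adjustment over all genes. The fit was tested on simulated data. The alternatives were other pseudocounts, filters, normalizations, probe set rules, fits and left-out arrays. A fit of D and E only was repeated without E2 after the data had been seen.

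The comparison, its members and the 33 gene lists were chosen with earlier results of these data known, and no list was tested. Genes named are the 15 largest rises and the 15 largest falls among called genes without overlap that were also called without E2, up to 4 called members of a list in each direction, all members of 4 lists (sorting genes, V(D)J recombination, surrogate light chain and pre-B receptor, MHC class II) and the 10 largest calls lost without E2. S1pr1, S1pr3, Vav2, Klf3, Myb, Wdr43, Mki67, Egr2, Nr4a1, Igk, Ccnb2, Cdk1, Cenpf, Pax5, Ebf1, the X- and Y-linked genes and the neutrophil, erythroid and NK genes other than Tfrc were chosen after their values were seen. Promoter sequences are from RefSeq (GRCm38.p6), and motifs were searched on both strands.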

Additional observations from a re-analysis of the deposited data

Results flagged for a closer look

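Among the named genes, 29 of 376 sets of 5 signals had an end value set apart from the other 4 by more than Dixon's 95% limit, where chance gives about 1 in 20. The share is not comparable with chance, since some of these genes, among them Ltf, Lyz2, Slc4a1 and Ccnb2, were chosen after their values were seen. E2 was that array for 10 of them. It was the highest E array for Dntt at 3644, Ltf at 5642, Lyz2 at 10259, Kit at 170.3, Hmgb2 at 12390, Gins1 at 1348 and Ccnb2 at 1797, against next highest E signals of 242, 669, 1654, 47, 9090.1, 803 and 853. It was the lowest for Pkib at 3766, Btla at 13584 and S1pr1 at 1911, against next lowest E signals of 5153, 15921 and 2389.

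Other E arrays stood apart in 6 genes: E1 was lowest in Sdc1 at 130.8 and highest in Slc2a1 at 3695, E3 was highest in Ubash3a at 19.4, E4 was lowest in Enpep at 12.9, and E5 was lowest in Ly6d at 2259 and H2-Oa at 757.

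Among the D arrays, D1 was lowest in Cd22 at 1274 and Cd40 at 514 and highest in Stim1 at 175. D2 was lowest in Cd24a at 20292. D3 was lowest in Pxdc1 at 79.1 and Cdkn2c at 2011 and highest in Eomes at 14.7 and Gzma at 94.2. D4 was highest in Cxcr5 at 18.1 and lowest in Zfp354b at 378. D5 was lowest in Bcl2l11 at 3795, Bid at 186.8 and Slc4a1 at 718.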

How the results depend on the processing

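Of 145 named genes that were called, 110 kept the call in every other setting in which they were tested, 22 at most, and no named gene that was called in any setting reversed. Leaving out single arrays in turn gave 386 to 418 rises and 423 to 492 falls, and ended the call of 30 named genes in at least 1 fit, at adjusted p from 0.0505 to 0.193: Bcl3, Ccdc180, Cdk1, D13Ertd608e, Fcer2a, Gimap7, Gnl3, Grtp1, Igkv6-20, Igkv9-120, Kctd14, Lss, Mcl1, Mzb1, Nfkbid, Pvt1, Rgs16, S1pr3, Selplg, Slc2a1, Slc2a3, Socs2, Stim1, Tcf12, Tlr4, Traf6, Ubash3a, Uqcrh, Vav2 and Vpreb1. In other settings Ackr3 and Pou2f2 were not called with a pseudocount of 1 (adjusted p = 0.0686 and 0.0552), nor Ccnd3 and Spn with all probe sets of a gene averaged (0.0524 and 0.0987). The counts moved by over 1.5 times with each probe set tested (751 higher, 844 lower, with more features tested), with array weights (1581 and 1580, cause not tested), and in the fit of D and E only (1529 and 1466, or 1483 and 1476 without E2), where the spread of the other populations is not used. Other pseudocounts, filters and normalizations gave 404 to 598 rises and 459 to 651 falls. A replicate block in the fit of D and E gave 1545 and 1482, with Dntt at adjusted p = 0.0511, but nothing in the labels pairs E and D arrays of the same number. Their X- and Y-linked genes matched by number, as did those of fraction F but not of fraction C. Residuals of E and D arrays of the same number correlated at 0.0351 to 0.127, with 1 of 5 pairs over 0.1. Without those genes the correlations were 0.0161 to 0.0988, with 0 of 5 pairs over 0.1 and 3 of 5 E arrays closest to their own number. Arrays of different numbers correlated at -0.0651 to 0.0752. Whether arrays of the same number share a source was not tested. Dim genes, such as Cxcr5 in D, are limited by the array background, and their differences depend on the pseudocount.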
